A study of Homo sapiens with 12 samples.

Results

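The SOX genes encode transcription factors that bind DNA through an HMG box, the domain they share with the sex-determining factor SRY. The 10 members described here, SOX2, SOX4, SOX5, SOX6, SOX8, SOX9, SOX11, SOX12, SOX13 and SOX17, were taken by gene name from an RNA sequencing table of 58735 genes, and all 10 were listed there. The table held 12 libraries in 4 groups of 3. Human cell lines named KGN and COV434, both labelled as granulosa cell tumour and as wild type, were untreated or exposed to 77-39, a compound that inhibits the mitochondrial deacetylase SIRT3, at a labelled dose of 10 um/ml for 72 h. The unit of that dose is unclear, and the same treatment text stands on the untreated libraries, which were recognised by their titles. Each line is 1 established culture, and the study speaks in general of independent experiments without saying that the 3 libraries of a group came from separate cultures, so p-values measure only the spread between these libraries. Values are FPKM, fragments scaled to gene length and library size. Levels are compared between genes within the limit of 1 listed length per gene, such as 19636 bases for SOX6 and 2342 bases for SOX17.

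SOX proteins are grouped by the likeness of their HMG boxes. They bend DNA in the minor groove and act together with partner factors that differ between tissues. SOX2 (SOXB group) maintains pluripotent and neural progenitor cells. SOX4, SOX11 and SOX12 (SOXC) act in neural and mesenchymal progenitors, and SOX5, SOX6 and SOX13 (SOXD) lack a transactivation domain of their own. SOX8 and SOX9 (SOXE) direct Sertoli cell and cartilage differentiation, and SOX17 (SOXF) directs endoderm, endothelial and reproductive tract development. In the gonad, SOX9 and the granulosa factor FOXL2 oppose each other, and FOXL2 protein is a defining marker of granulosa cells.

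Some of the markers did not follow the labels. FOXL2 had 1 read in the 3 untreated and 1 read in the 3 treated libraries labelled KGN, against 11.5 to 14.0 FPKM in the libraries labelled COV434. SMARCA2, whose loss together with SMARCA4 marks small cell carcinoma of the ovary, hypercalcaemic type, a diagnosis to which COV434 has been reassigned, was at 0.00773 ± 0.00127 FPKM (SD, n = 3) in untreated libraries labelled KGN and at 5.65 ± 0.717 FPKM in those labelled COV434. SMARCA4 was at 2.58 ± 0.0210 FPKM in the untreated libraries labelled KGN and 9.22 ± 3.13 FPKM in those labelled COV434. The 6 granulosa markers (FOXL2, CYP19A1, FSHR, INHA, AMH and NR5A1) summed to 5.19 to 6.11 FPKM under the KGN label and to 21.4 to 26.3 FPKM under the COV434 label. The difference rests on FOXL2, AMH and INHA. In untreated libraries labelled KGN and COV434 in turn, AMH was at 4.55 and 8.24 FPKM and INHA at 1.06 and 4.75 FPKM. CYP19A1 was at 0.0937 and 0.106 FPKM there, FSHR had no read in any library, and NR5A1 had 1 read, in a treated library labelled KGN. The 5 epithelial markers (EPCAM, CDH1, KRT7, KRT19 and CLDN4) summed to 0.173 to 0.317 and 438 to 582 FPKM. KRT7 and KRT19 were at 0 in every library labelled KGN. The second sum was mostly these 2 genes, at 406 and 40.6 FPKM in untreated libraries labelled COV434. There CLDN4 was at 1.48 FPKM, CDH1 at 0.0519 FPKM, and EPCAM had 2 reads over the 3 libraries. Fibroblast markers (DCN, LUM, COL1A1, COL1A2 and PDGFRB) summed to 14.7 to 21.1 and 76.1 to 198 FPKM. LUM made up most of both sums, at 12.6 and 118 FPKM in untreated libraries. COL1A2 alone went the other way, at 0.620 and 0.00535 FPKM there. Leukocyte markers (4 genes) summed to at most 0.442 FPKM in all libraries. FOXL2 and SMARCA2 thus stood the other way round from what the names KGN and COV434 stand for. SMARCA4 was lower under the KGN label but not lost, with 696 to 807 reads in each untreated library. Further granulosa genes were split. In untreated libraries labelled KGN and COV434 in turn, ESR2 was at 1.74 and 0.0446 FPKM and HSD17B1 at 2.67 and 1.16 FPKM. INHBB was at 0.00561 and 6.95 FPKM and BMP2 at 0.147 and 70.8 FPKM. The cause was not tested, and the lines are called by their labels throughout. Recovered reads on genes numbered 15547851 to 18280415 per library, and mitochondrially encoded genes took 7.3% to 8.81% of them under the KGN label and 7.71% to 13.5% under the COV434 label.

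The DNA that encodes the core peptide by which the HMG box was found is shown for 6 members. These are the members with a mean of 0.1 FPKM or more under at least 1 label whose sequence is shown here. It lies in the domain through which these proteins touch DNA. Each run is 27 bases long, 9 codons, read 5′ to 3′ on the coding strand of GENCODE 29 transcripts on GRCh38. The capitals mark the 6 positions at which any of 9 members differ, and the other 21 positions are the same in all 9.
SOX4: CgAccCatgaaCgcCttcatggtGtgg
SOX12: AgGccGatgaaCgcAttcatggtGtgg
SOX5: CgTccAatgaaTgcCttcatggtGtgg
SOX13: AgGccCatgaaCgcCttcatggtGtgg
SOX6: CgAccAatgaaTgcAttcatggtTtgg
SOX8: CgGccCatgaaCgcAttcatggtGtgg
These stretches lie at chr6:21594715-21594741 (plus strand) in the single exon of SOX4, at chr20:326048-326074 (plus) in the single exon of SOX12, at chr12:23543284-23543310 (minus) in exon 12 of 14 of SOX5, at chr1:204123705-204123731 (plus) in exon 12 of 14 of SOX13, at chr11:15989070-15989096 (minus) in exon 14 of 16 of SOX6, and at chr16:982232-982258 (plus) in exon 1 of 3 of SOX8, all within coding sequence. All 10 members encode the same 9 residues there. The stretch was searched for by this exact peptide, so that the bases that differ leave it unchanged follows from the search.

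Over 70 codons of the box from this peptide on, the 45 pairs of members shared 48.6% to 98.6% of residues, with a median of 62.9%. The 9 residues of the search peptide are among the 70 and are the same in every pair. SOX8 and SOX9 were the closest pair at 98.6%. SOX4 shared 95.7% with SOX11 and 88.6% with SOX12, SOX5 shared 94.3% with SOX13 and 92.9% with SOX6, and SOX17 shared at most 72.9%, with SOX8 and SOX9. Likeness of the box and levels are set side by side in what follows: SOX5 and SOX6 were both higher under the KGN label, while SOX5 and SOX13 were higher under different labels, as were SOX12 and SOX4.

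**Figure D1:**
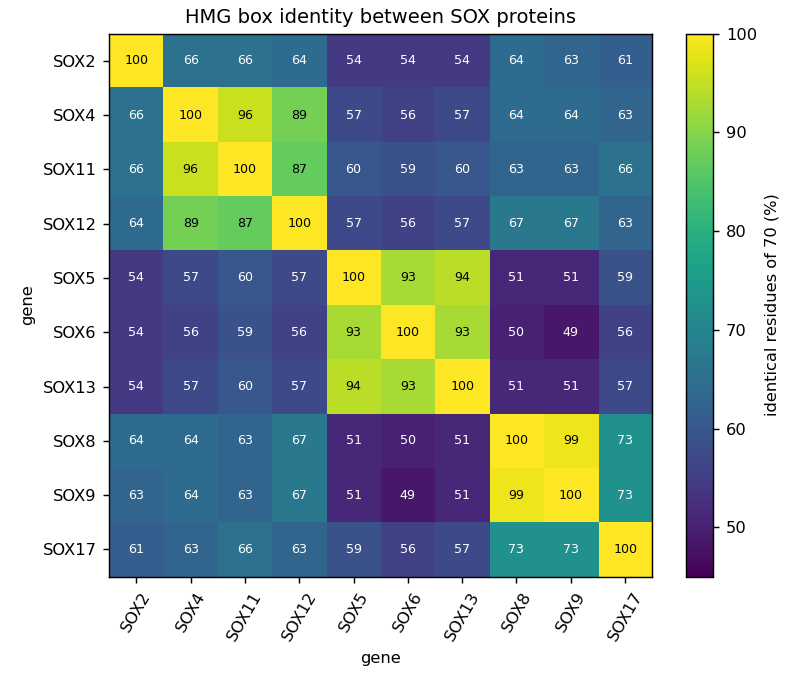
Each cell gives the percentage of identical residues over 70 codons of the HMG box for a pair of SOX genes, rounded to whole percent, with both axes listing the 10 members ordered by group. The SOXC genes (SOX4, SOX11, SOX12), the SOXD genes (SOX5, SOX6, SOX13) and the SOXE genes (SOX8, SOX9) form blocks of 87.1% or more, and SOX17 reaches at most 72.9%.

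The libraries differed first of all in which SOX gene dominated. SOX17 was by far the highest member in the libraries labelled KGN and had no read in those labelled COV434, where SOX12, SOX13 and SOX4 stood close together. The summed level of the 10 members was 277 to 412 FPKM under the KGN label and 20.3 to 30.6 FPKM under the COV434 label. Without SOX17 the sum was 28.4 to 30.9 FPKM in the libraries labelled KGN. SOX17 made up 89.8% to 92.5% of the sum there, while SOX12, the highest member in every library labelled COV434, made up 36.7% to 40.9%.

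**Figure D2:**
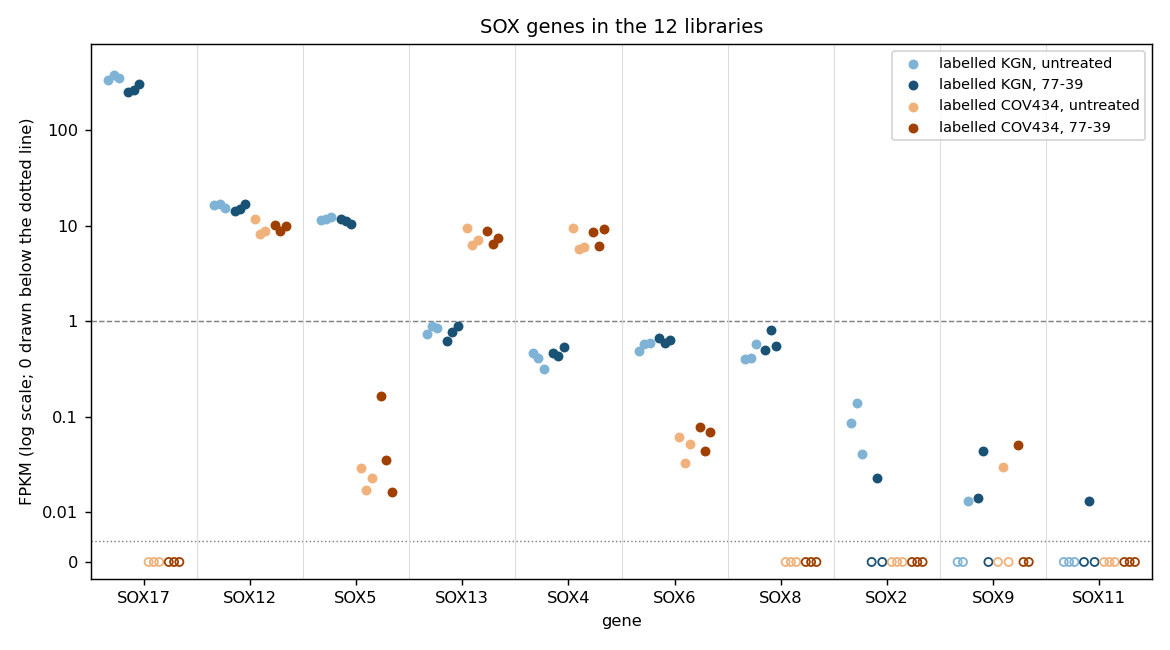
FPKM on a log axis for each of the 10 SOX genes in each of the 12 libraries, coloured by label and treatment, with open circles below the dotted line for values of 0 and a dashed line at 1 FPKM. SOX17 and SOX5 are above 10 FPKM in the 6 libraries labelled KGN only, SOX13 and SOX4 are above 1 FPKM in the 6 labelled COV434 only, and SOX12 is above 1 FPKM in all 12.

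SOX17, the SOXF factor of endoderm and vessels, was at 338, 381 and 352 FPKM in the untreated libraries labelled KGN and at 249, 265 and 305 FPKM in the treated ones. The 3 treated libraries were all below the 3 untreated ones, and how many of all genes separated in this way was not counted. All 6 libraries labelled COV434 had no SOX17 read. With a floor of 3 reads per library, the level was at least 4620-fold higher under the KGN label in untreated libraries and at least 3188-fold higher in treated ones. Floors and intervals from reads cover counting error only. SOX17 ranked 66 among 29830 genes above 0 in the untreated libraries labelled KGN, and 2 among 1325 transcription factor genes, behind ID3, a helix-loop-helix inhibitor. With 77-39 it ranked 82 of 29987 genes and 3 of 1345 transcription factors, behind ID3 and YBX1, a cold-shock domain factor.

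SOX12, a SOXC factor, was the member found on both sides. It was at 16.4, 16.7 and 15.3 FPKM in untreated and 14.3, 14.9 and 17.0 FPKM in treated libraries labelled KGN. It was at 11.8, 8.20 and 8.87 FPKM in untreated and 10.3, 8.83 and 10.0 FPKM in treated libraries labelled COV434. Every library labelled KGN was above every library labelled COV434, a separation not set against its share over all genes. The treated and untreated libraries overlapped under both labels. All 4630 bases of SOX12 lie between the start and end of NRSN2-AS1 on the opposite strand, which was listed at 3.38 to 7.39 FPKM. Overlap of exons was not examined. Whether reads were counted by strand is not given in the sources used here, so reads of the overlapping genes cannot be told apart.

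SOX5, a long SOXD protein that partners SOX6 in cartilage, was at 11.5, 11.8 and 12.4 FPKM in untreated and 11.8, 11.1 and 10.3 FPKM in treated libraries labelled KGN. Under the COV434 label it had 5, 3 and 4 reads in untreated and 26, 6 and 3 reads in treated libraries. The library with 26 reads, replicate 1 with 77-39, stood apart at 0.166 FPKM, and it also had the highest mitochondrial share (13.5%) and no SOX17 read. The ratio of mean FPKM between the labels was 520 in untreated and 153 in treated libraries, and that library accounts for most of the reads behind the second value.

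SOX13, the third SOXD gene and a known modulator of TCF signalling, went the other way. It was at 9.35, 6.24 and 7.14 FPKM in untreated and 8.76, 6.50 and 7.49 FPKM in treated libraries labelled COV434, against 0.741, 0.883 and 0.856 FPKM in untreated and 0.624, 0.773 and 0.895 FPKM in treated libraries labelled KGN. The mean was 9.16 times higher under the COV434 label in untreated libraries and 9.93 times higher in treated ones. SOX4, the SOXC factor linked to progenitor survival and epithelial-mesenchymal transition, had the same order. It was at 9.38, 5.74 and 6.05 FPKM in untreated and 8.65, 6.18 and 9.21 FPKM in treated libraries labelled COV434, and at 0.461, 0.410 and 0.313 FPKM in untreated and 0.461, 0.436 and 0.542 FPKM in treated libraries labelled KGN. Its mean was 17.9 times higher under the COV434 label in untreated and 16.7 times higher in treated libraries. The labels did not overlap, a separation not set against its share over all genes either.

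SOX6 and SOX8 were low but present under the KGN label. SOX6, the other long SOXD gene, was at 0.547 ± 0.0530 FPKM in untreated and 0.629 ± 0.0378 FPKM in treated libraries labelled KGN (SD, n = 3), and at 0.0487 ± 0.0145 and 0.0633 ± 0.0179 FPKM under the COV434 label, with 11 to 24 reads in each of those 6 libraries. SOX6 overlaps C11orf58 on the opposite strand, which was at 11.8 to 21.6 FPKM in all libraries, and the share of its reads among those given to SOX6 was not tested. SOX8, a relative of SOX9 expressed in Sertoli cells, was at 0.402, 0.409 and 0.573 FPKM in untreated and 0.497, 0.807 and 0.553 FPKM in treated libraries labelled KGN, and had no read in the 6 labelled COV434. It was at least 11.3-fold higher under the KGN label in untreated and at least 13.7-fold higher in treated libraries.

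SOX2, SOX9 and SOX11 were at or near the limit of detection. SOX2 had 4, 6 and 2 reads in the untreated libraries labelled KGN and 0, 1 and 0 in the treated ones, and none under the COV434 label. SOX9 had 0 to 3 reads in each of the 12 libraries, all 12 at or below its floor of 3 reads (0.0387 to 0.0509 FPKM). SOX11 had 2 reads in 1 library, replicate 2 with 77-39 under the KGN label, and none in the other 11. In untreated libraries the mean of SOX2 was at least 1.23-fold higher under the KGN label than the floor of 3 reads per library under the COV434 label, and its difference with 77-39 rests on these few reads and was not tested. No difference between groups was detectable for SOX9 and SOX11 at this depth.

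Ordered by mean level, the untreated libraries labelled KGN ran SOX17, SOX12, SOX5, SOX13, SOX6, SOX8, SOX4, SOX2, SOX9 and SOX11. In this order SOX6 and SOX8, SOX8 and SOX4, and SOX9 and SOX11 had overlapping replicate ranges, and the other neighbours did not overlap. The treated libraries kept SOX17, SOX12 and SOX5 at the top without overlap, while SOX13, SOX6, SOX8 and SOX4 overlapped in turn. The untreated libraries labelled COV434 ran SOX12, SOX13 and SOX4, whose neighbouring ranges overlapped, followed at a distance by SOX6 and SOX5. With 77-39 the means ran SOX12, SOX4 and SOX13, again with overlap. SOX2, SOX8, SOX11 and SOX17 had no read in any library labelled COV434.

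The effect of 77-39 was tested on log2(FPKM + 1) with limma, in genes whose mean reached 1 FPKM and with Benjamini-Hochberg adjustment over all genes tested. The added 1 FPKM makes fold changes of low genes smaller than they are. In the libraries labelled KGN, SOX17 fell by 0.39 on the log2 scale (SE 0.089, 95% interval -0.60 to -0.18, adjusted p = 0.0157), from 357 ± 22.2 to 273 ± 28.8 FPKM (SD, n = 3). It was lower in 3 of 3 treated libraries than in any untreated one, a separation not set against its share over all genes. SOX5 differed by -0.10 (95% interval -0.24 to 0.04, adjusted p = 0.242) and SOX12 by -0.07 (95% interval -0.23 to 0.10, adjusted p = 0.50), so neither difference exceeded the spread between libraries. Thus 1 of the 3 members tested was called, where 34% of the 12671 genes tested were called. SOX17 lost its call when untreated replicate 2 (adjusted p = 0.0557), treated replicate 1 (adjusted p = 0.0509) or treated replicate 2 (adjusted p = 0.0598) was left out, and when no filter on low genes was used (adjusted p = 0.0711). Over all settings the change stayed between -0.47 and -0.33. In bulk RNA, fewer cells with SOX17 transcripts and less of the transcript per cell cannot be told apart.

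The members under 1 FPKM in the libraries labelled KGN were tested with the filter lowered to 0.1 FPKM, where 17.5% of 21625 genes were called. SOX8 differed by 0.15 (adjusted p = 0.412), SOX4 by 0.09 (adjusted p = 0.526), SOX6 by 0.08 (adjusted p = 0.545) and SOX13 by -0.05 (adjusted p = 0.743), and none of the 4 was called. SOX2, SOX9 and SOX11 were below this filter.

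In the libraries labelled COV434 none of the 3 members tested was called, where 0.0415% of 12060 genes were called. SOX4 differed by 0.17 (SE 0.22, 95% interval -0.32 to 0.67, adjusted p = 0.941), SOX12 by 0.02 (95% interval -0.36 to 0.41, adjusted p = 0.996) and SOX13 by 0.01 (95% interval -0.41 to 0.43, adjusted p = 0.999). None reached an unadjusted p of 0.05 either, where 8% of genes did, and none was called by voom on the recovered reads. These intervals are wider than those under the KGN label. With the replicate number as a block the number of genes called rose from 5 to 87 (0.721%), and no member was among them.

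**Figure D3:**
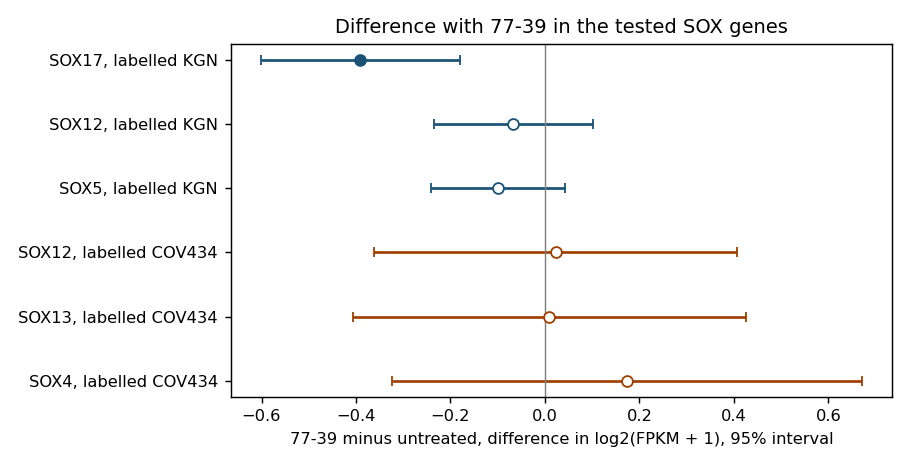
Difference between 77-39 and untreated libraries in log2(FPKM + 1), with 95% intervals, for the 3 members tested under each label, filled where the adjusted p was under 0.05. SOX17 in libraries labelled KGN, at -0.39, is the only filled point, and the intervals of the other 5 cross 0.

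Whether the response differed between the labels was tested as an interaction over all 12 libraries, in which 3.6% of 13127 genes were called. None of the 5 members tested was called. SOX17 gave -0.39 (SE 0.13, adjusted p = 0.123), and it was the 1 member with an unadjusted p under 0.05 in limma, where 18% of genes were. Since SOX17 had no read under the COV434 label, its interaction is the KGN fall itself against a level of 0. SOX5 gave -0.16 (adjusted p = 0.515), SOX12 -0.09 (adjusted p = 0.854), SOX4 -0.09 (adjusted p = 0.900) and SOX13 -0.06 (adjusted p = 0.912). Voom on the recovered reads called no member.

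Between the labels, 69% of 13098 genes were called in untreated and 71.3% of 13138 in treated libraries, so a call says little by itself. SOX4, SOX5, SOX13 and SOX17 passed the filter only through the label under which they were high and therefore had to differ. SOX12 was the member above the filter under both labels, and it was higher under the KGN label by 0.70 (SE 0.14, adjusted p = 0.00357) in untreated and by 0.61 (SE 0.10, adjusted p = 0.00149) in treated libraries, 1.67 and 1.58 times in mean FPKM. The fitted differences of the others, KGN label minus COV434 label, were 8.48 and 8.09 for SOX17, 3.66 and 3.49 for SOX5, -2.50 and -2.59 for SOX4 and -2.22 and -2.28 for SOX13, in untreated and treated libraries in turn. The value for SOX17 depends on the added 1 FPKM, since its level under the COV434 label was 0. The values from untreated and treated libraries lay within each other's 95% intervals for SOX4, SOX5, SOX12 and SOX13. For SOX4, SOX5 and SOX13 the lower label was under 1 FPKM, so the added 1 FPKM sets much of these values. Their likeness is therefore not taken as support. For SOX5 the ratio of mean FPKM was 520 in untreated and 153 in treated libraries.

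**Figure D4:**
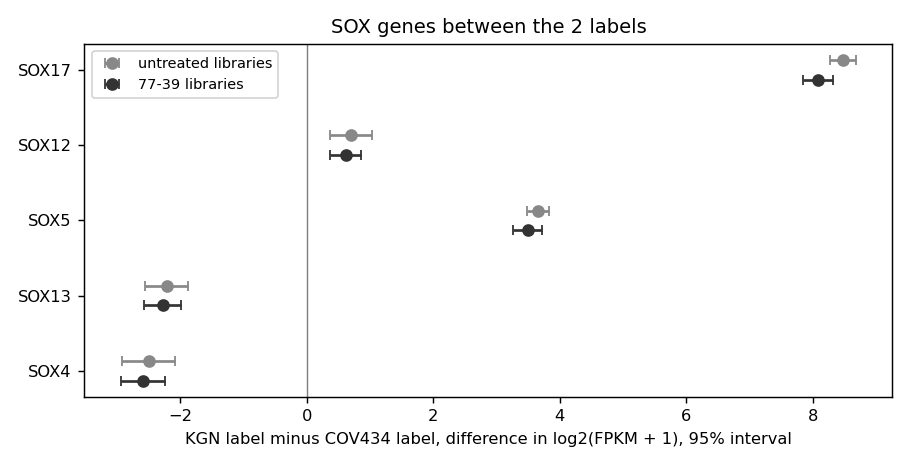
Difference between libraries labelled KGN and COV434 in log2(FPKM + 1), with 95% intervals, for the 5 members tested, in untreated (grey) and 77-39 (black) libraries. SOX17, SOX12 and SOX5 lie above 0, SOX13 and SOX4 below 0, and for each gene the untreated and treated points lie on the same side.

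Of the 9 other SOX family genes in the table, SOX18, SOX15 and SOX7 had at least 10 reads in some library. SOX18, the SOXF relative of SOX17 that acts in vessels, was at 6.80, 8.17 and 9.68 FPKM in untreated and 8.10, 4.87 and 4.44 FPKM in treated libraries labelled COV434, and at 0.207 to 0.681 FPKM under the KGN label. The levels of SOX17 and SOX18 were thus in opposite order between the labels. SOX15, expressed in muscle and germ-line progenitors, was at 3.94 to 7.87 FPKM under the COV434 label and 0.272 to 0.923 FPKM under the KGN label. SOX7, the third SOXF gene, had 1 to 10 reads in each library labelled KGN and none under the COV434 label. With 77-39 SOX18 differed by -0.47 (adjusted p = 0.685) and SOX15 by 0.03 (adjusted p = 0.996) under the COV434 label.

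The neighbourhood of SOX17 held 1 transcript above 1 FPKM that was likewise present under the KGN label only, chosen after its values were seen. AC091076.1, annotated as an unprocessed pseudogene 6320 bases downstream on the same strand, was at 21.6, 24.3 and 24.5 FPKM in untreated and 16.3, 18.3 and 22.2 FPKM in treated libraries labelled KGN, and at 0 in the 6 labelled COV434. Treated replicate 3 was above untreated replicate 1, so unlike for SOX17 the treated and untreated libraries overlapped. Its difference with 77-39 was -0.30 (SE 0.11, adjusted p = 0.0718), which did not pass the threshold, and it passed with the replicate block (adjusted p = 0.0360) and with voom (adjusted p = 0.0376). The other 4 genes listed within 100 kb of SOX17 had group means under 1 FPKM. Near SOX13, PLEKHA6 lies 91108 bases away and was also chosen after its values were seen. It was at 9.79 and 9.47 FPKM in untreated and treated libraries labelled COV434 and at 0 and 0.00687 FPKM under the KGN label. ETNK2, only 3319 bases away, was at 0.708 and 1.44 FPKM under the COV434 label and at 0.499 and 0.707 FPKM under the KGN label. The other genes listed within 100 kb of SOX13 had group means under 1 FPKM. The genes near SOX12 had mixed patterns. In untreated libraries labelled KGN and COV434 in turn, TRIB3, a pseudokinase of the stress response, was at 29.4 and 132 FPKM. NRSN2 was at 25.7 and 10.2 FPKM and C20orf96 at 15.4 and 1.22 FPKM, while DEFB132 and AL034548.1 were at 0 in all libraries.

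**Figure D5:**
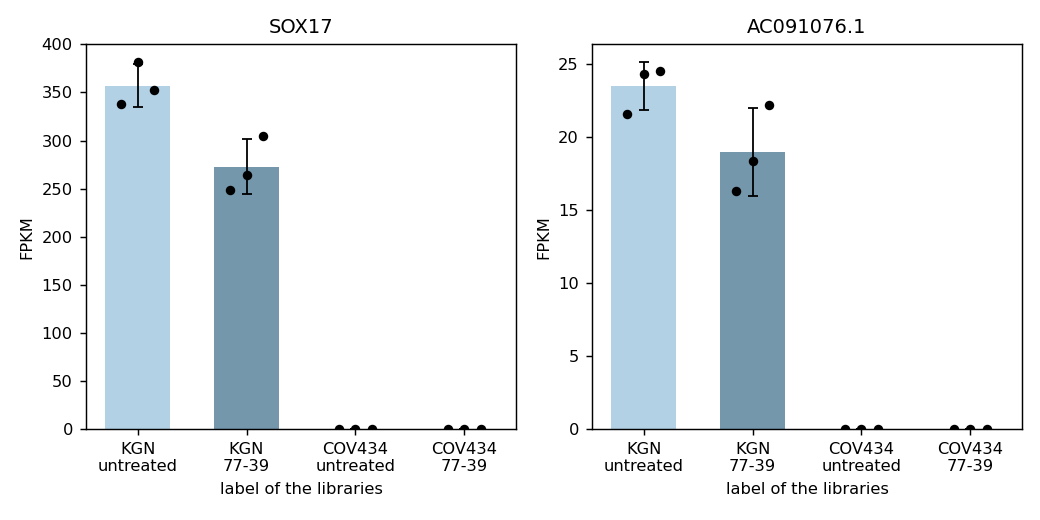
FPKM of SOX17 (left) and of the neighbouring pseudogene AC091076.1 (right) by label and treatment, with bars for the mean, whiskers for the SD and points for the 3 libraries of each group. Both genes are present under the KGN label only, and SOX17 is lower in all 3 treated libraries, at 249 to 305 FPKM against 338 to 381 FPKM.

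By profile over the 12 libraries, the root-mean-square difference of centred log2(FPKM + 1) was smallest to SOX17, among 13127 genes, for FAM9C (0.101), GPC4, a glypican of the cell surface (0.181), and RGS4, a regulator of G-protein signalling (0.225). All 3 had no read under the COV434 label and group means of 252 to 431 FPKM under the KGN label. For SOX12 they were RAB11FIP3, an effector of endosome recycling (0.0718), LRRC37B (0.0747) and KLC1, a kinesin light chain (0.0816).

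Genes that act with or under SOX factors were described by lists. Of 17 partners and Wnt effectors, 8 were tested in the libraries labelled KGN and 1 was called, in the direction of a fall, where 34% of all genes tested were called. TLE3, a Groucho corepressor, fell by 0.65 (adjusted p = 6.13e-04), from 9.65 ± 0.516 to 5.78 ± 0.335 FPKM (SD, n = 3), and this call was lost in 1 fit of all 12 libraries (adjusted p = 0.0860). The median of the list was -0.08, beside 0.01 over all genes tested. In the libraries labelled COV434 none of 9 tested was called, with a median of 0.01 beside -0.02 over all genes, and the smallest p belonged to TLE1, another Groucho corepressor, at 0.34 (adjusted p = 0.683).

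Of 15 genes of SOXC neural and mesenchymal programmes, 6 were tested under the KGN label and 4 fell, where 34% of all genes tested were called, with a list median of -0.32 beside 0.01 over all genes. In 1 fit of all 12 libraries 2 of the 4 were called. STMN1, a microtubule destabiliser, fell by 0.57 (adjusted p = 0.00111), from 29.6 ± 0.795 to 19.7 ± 1.49 FPKM, and lost this call in 1 fit of all 12 libraries (adjusted p = 0.129). MEX3A, an RNA-binding protein, fell by 0.48 (adjusted p = 6.48e-04), and DBN1, the actin-binding drebrin, fell by 0.43 (adjusted p = 0.00127). TEAD2, a Hippo pathway transcription factor named as the fourth after its value was seen, fell by 0.22 (adjusted p = 0.0461). SOX4 and SOX12 themselves were not called in these libraries. In the libraries labelled COV434 none of 5 tested was called, with a median of 0.09, and the smallest p was that of DBN1 at 0.24 (adjusted p = 0.787).

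Of 22 genes of the SOX9 sex cord and cartilage programmes, 4 were tested under the KGN label, where SOX9 was at its floor, and 2 were called, beside 34% of all genes. WT1, a gonadal ridge factor, fell by 0.34 (adjusted p = 0.00309), from 59.7 ± 2.85 to 46.9 ± 0.976 FPKM, and had no read under the COV434 label. HAPLN1, a cartilage link protein, rose by 0.24 (adjusted p = 0.0284), and the list median was 0.04. Under the COV434 label 1 gene was tested, AMH, the Sertoli and granulosa hormone, at -0.34 (adjusted p = 0.646). Of 14 genes of the granulosa programme, 2 were tested under the KGN label with a median of -0.10 and none called. The smaller p was that of ESR2, the estrogen receptor of granulosa cells, at -0.16 (adjusted p = 0.242). Under the COV434 label none of 5 was called, with a median of 0.05, and the smallest p was that of BMP2, a growth factor, at -0.66 (adjusted p = 0.415), from 70.8 ± 15.3 to 44.4 ± 9.39 FPKM. BMP2 was called lower in 1 fit of all 12 libraries (adjusted p = 0.0477).

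Of 17 SOX2 pluripotency and neural progenitor genes, 4 were tested under the KGN label and 1 was called, beside 34% of all genes. LIN28B, an RNA-binding repressor of let-7, fell by 0.48 (adjusted p = 0.00121), from 16.8 ± 0.940 to 11.8 ± 0.350 FPKM, while the list median was 0.09. None of 5 was called under the COV434 label (median -0.04), with the smallest p for the receptor NOTCH1 at 0.40 (adjusted p = 0.824). Of 16 SOX17 endoderm and endothelial genes only FOXA1, a forkhead pioneer factor, was tested under the KGN label, at -0.16 (adjusted p = 0.191), although SOX17 itself was high there. Under the COV434 label 6 were tested with a median of -0.25 and none called. The smallest p was that of CDH5, the cadherin of endothelial junctions, at -0.98 (adjusted p = 0.109), from 1.98 ± 0.360 to 0.506 ± 0.148 FPKM. CDH5 was called lower by voom (adjusted p = 0.0318) and in 1 fit of all 12 libraries (adjusted p = 0.00125). Its treated mean was under 1 FPKM, so it passed the filter only through the untreated group, and these tests are not taken as support for a fall. Of 12 SOXD and SOXE glial genes, 2 were tested under the KGN label, with a median of -0.10, and 1 was called, beside 34% of all genes: ERBB3, a neuregulin receptor, fell by 0.31 (adjusted p = 0.0171). None of 4 was called under the COV434 label (median -0.15), with the smallest p for the myelin gene MBP at -0.25 (adjusted p = 0.799).

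The calls of HAPLN1, TEAD2 and ERBB3 were lost without the low-value filter, in 1 fit of all 12 libraries and when single libraries were left out, and those of HAPLN1 and TEAD2 also at 0.1 FPKM. Among the cell type markers tested under the KGN label, AMH differed by -0.05 (adjusted p = 0.563), SMARCA4 by -0.10 (adjusted p = 0.239) and DCN by 0.03 (adjusted p = 0.787). LUM, a fibroblast proteoglycan, rose by 0.43 (adjusted p = 0.00338), where 34% of all genes tested were called. The rest of the fibroblast list did not share this rise. Besides DCN, the means with 77-39 went from 0.620 to 0.377 FPKM for COL1A2, from 0.117 to 0.0870 FPKM for COL1A1 and from 0.0262 to 0.0209 FPKM for PDGFRB, all under the filter. The part of other cells in these results was not tested.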

How the data were processed

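The study sequenced RNA of cell lines labelled KGN and COV434, with and without 77-39 (3 libraries each), on an Illumina NovaSeq instrument at Novogene. The authors deposited FPKM per gene, with gene length. The submitters' processing notes name HISAT2 2.0.5 and mouse builds, while all 58735 gene IDs and coordinates match human GENCODE 29 on GRCh38. The extract protocol in the labels speaks of retinas. The counting tool and its strand setting are not given in the sources used here.

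Depth was recovered from the deposited FPKM and gene length: 100% of values came out as whole reads (tolerance 0.05), 15547851 to 18280415 per library. The library size behind the FPKM was 1.07 to 1.10 times these reads under the KGN label. Under the COV434 label it was 0.911 to 0.978 times these reads, so FPKM ratios between labels carry this difference in scaling. Groups were taken from the sample titles, and the sample names in the table from the library names in the labels. Log2(FPKM + 1) was tested with limma 3.58.1 (R 4.3.3, eBayes with trend, two-sided, Benjamini-Hochberg), in genes with a mean of 1 FPKM or more, called at an adjusted p under 0.05. Each label was fitted alone, each treatment alone between labels, and all 12 libraries for the interaction. DNA was read from GENCODE 29 transcripts in Python 3.11.15, and the HMG box was found by its core peptide. Alternatives were a pseudocount of 0.1 FPKM, a filter at 0.1 FPKM or none, median-ratio scaling, a replicate block, voom on recovered reads, 1 fit of all 12 libraries and each library left out. The labels number the replicates and do not say that equal numbers pair libraries. Under the COV434 label, same-numbered deviations from group means correlated at 0.40, 0.47 and 0.17 over 12060 genes. Across the labels, replicate 1 of treated KGN and of untreated COV434 correlated at 0.22 over 13127 genes. Libraries with different numbers were not compared, so pairing was not established. No pair of libraries was identical, and replicates differed by more than sampling noise.

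The fits were tested on simulated data with the same spread between replicates in every comparison. In the data the chi-square per gene between replicates was 2.36 to 8.36 under the KGN label and 15.6 to 89.9 under the COV434 label. The simulation therefore does not show how the fits perform at the spread of the libraries labelled COV434. The 10 members and the lists were chosen with earlier results of these data known. AC091076.1, PLEKHA6, ETNK2, TRIB3, C20orf96, NRSN2, TEAD2 and the further granulosa genes compared between labels were named after their values were seen. Other genes outside the members and the cell type markers were named by rule. Per list and 77-39 comparison, these were up to 3 tested genes with the smallest adjusted p under 0.05. Where none passed, the gene with the smallest p was named. Other SOX genes with at least 10 reads in a library and the 3 genes nearest in profile to the top member of each label were also named.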

Additional observations from a re-analysis of the deposited data

How the results depend on the processing

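Across the alternatives, SOX12 stayed higher under the KGN label with its call in untreated and treated libraries, and no 77-39 result of a member gained a call. The other 4 members tested between labels had to differ, so their calls say nothing of stability. The fall of SOX17 under the KGN label kept its direction. The number of members called there went from 1 to 0 without a filter, where more genes are tested, and was 0 to 1 with 1 library left out. Among all genes, calls under the KGN label were 1237 in 1 fit of all 12 libraries and 2751 to 4128 with 1 library left out. Under the COV434 label the 5 genes called became 3 with a pseudocount of 0.1 FPKM, 3 with a filter at 0.1 FPKM, 1 without a filter, 25 with voom, 488 in 1 fit of all 12 libraries and 1 to 7 with 1 library left out. Interaction calls were 264 with voom and 126 to 975 with 1 library left out. The causes were not tested.

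With the replicate block, genes called under the COV434 label rose to 87, none of them a member. Under the KGN label, where same-numbered libraries correlated at -0.016 to -0.019 and share only a number, SOX17 kept its call with the block (adjusted p = 0.0342 in limma), while HAPLN1, TEAD2 and ERBB3 had adjusted p of 0.0680, 0.0808 and 0.0551. The block changed no other call of a member.

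Differences near 0 changed sign. With 77-39 under the COV434 label, without untreated replicate 2, untreated replicate 3 and treated replicate 1 in turn, SOX12 gave -0.0742, -0.0232 and -0.015 and SOX13 -0.1049, -0.0206 and -0.0875, with highest values of 0.1655 and 0.1531. The interaction of SOX4 was 0.0409 with a pseudocount of 0.1 FPKM, 0.0915 with voom, and -0.2845 to 0.0272 with 1 library left out (0.0108 without COV434 treated replicate 3). That of SOX12 was -0.2323 to 0.0074 and that of SOX13 -0.2059 to 0.052 (0.0347 without COV434 treated replicate 1). None of these was called. At these depths SOX9 and SOX11 could not be compared, and SOX2 rests on at most 6 reads in a library.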
